A study of Mus musculus with 24 samples.

Results

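Tumours that grew from cells expressing BC74C were set against tumours that grew from cells expressing ZNF668. The comparison holds 18 of the 24 tumours profiled, 9 of each class gene, chosen by the class gene label alone and whatever their tumour label. All were excised from the cortex of mouse brains, and the total RNA of each was hybridised to 1 single-colour array. Of the BC74C tumours 6 are labelled EPENDYMOMA, 2 HGG and 1 UNKNOWN; of the ZNF668 tumours 3 are labelled EPENDYMOMA, 2 HGG, 3 TUMOR without a type and 1 UNKNOWN. HGG is not spelled out in the labels. The other 6 tumours, of the class gene RAB3A, served to estimate the spread between tumours and are given as values only. All 24 samples are tumours, so no level below is set against normal cortex. The mouse strain, age and sex, the vector and promoter of the class gene, the cell that received it and the time to excision are not given in the sources used here. Nor do they say that the tumours came from separate animals, so the p-values measure only the spread between these tumours.

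Ependymomas are tumours with features of the cells that line the ventricles, and they are thought to arise from radial glia, the stem cells of the developing brain. A tumour piece from the cortex also holds resident and infiltrating cells (neurons, oligodendrocyte lineage cells, vessels, microglia), and a level measured in bulk cannot tell fewer cells of a type from less RNA per cell. ZNF668 encodes a zinc finger protein, with Zfp668 as the mouse orthologue. No approved gene carries the symbol BC74C; Bcl7c, which encodes a member of the BAF complexes that remodel chromatin, is given only as a candidate for it.

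Array medians lay between 4.98 and 5.19 on the log2 scale, and pairs of arrays correlated between 0.888 and 0.989. The median difference of all 13218 genes tested was 0.0047 with a median SE of 0.204, so the deposited values were centred alike in both groups. Titles begin with elw in 8 BC74C and 6 ZNF668 tumours and with mmr in 1 and 3, a possible batch whose meaning the labels do not state. Markers of ependymal and motile cilia averaged 4.91 ± 0.39 (SD, n = 9) in the BC74C group against 4.65 ± 0.20 (SD, n = 9) in the ZNF668 group, near the median of an array, and the astrocyte markers averaged 10.12 ± 0.36 (SD, n = 9) and 9.90 ± 0.93 (SD, n = 9). The candidate transcripts of the class genes did not separate the groups. Bcl7c averaged 9.06 ± 0.44 (SD, n = 9) in the BC74C group against 8.78 ± 0.50 (SD, n = 9) in the ZNF668 group, a difference of 0.27 (95% interval -0.19 to 0.74), and its other probe set had the opposite sign, at -0.32. Zfp668 averaged 4.98 ± 0.33 (SD, n = 9) and 4.99 ± 0.26 (SD, n = 9), a difference of -0.0086 (95% interval -0.31 to 0.30). An introduced sequence that these probes do not cover would not be seen.

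BC74C tumours had less transcript of the detoxifying enzyme Gsta2, 2 AP-2 transcription factors, cartilage collagens and several proteins of the actin cytoskeleton than ZNF668 tumours. They had more of the lipid enzyme Gdpd3, the Hedgehog receptor Ptch1, the glutamate receptor subunit Gria1 and the membrane protease Rhbdd1. The log2 differences of these lower genes were unequal, from -4.03 for Gsta2 to -1.07 for Mylk, a kinase of the actin group. With limma and Benjamini-Hochberg adjustment over all genes tested, 40 genes passed an adjusted p of 0.05, which is 0.303% of the 13218. Of these 11 were higher in BC74C (0.0832%) and 29 lower (0.219%). A called gene here is one that passed this threshold. The gene lists below were chosen with earlier results known, so no count of calls in a list is a test of it. The ranges of the groups did not overlap for 10 genes (0.0757% of all tested), and all 10 were called. Rhbdd1 was higher in every BC74C tumour. Gsta2, Tfap2e, Abhd11os, Col9a2, Abcg5, Col2a1, Sorbs3 and the clone-named Gm11696 and 9030612E09Rik were lower in every one. Of these, Tfap2e, Abcg5 and Col2a1 had a BC74C mean under 3.76, the filter level for dim genes, and Gsta2 lay near it. They passed that filter through their brighter tumours, and the dim BC74C signal limits the size of their differences. Of the 40 genes, 24 stayed called in each of the 24 fits that left out 1 tumour and 16 were lost in at least 1, from 4 fits for Fndc1 and Igf2bp3, 5 for Edaradd and 7 for N4bp3 up to 20 for Serinc2 and Tfap2a. Gria1, Mylk, Col9a2 and Tpm2 were also among the 16.

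**Figure D1:**
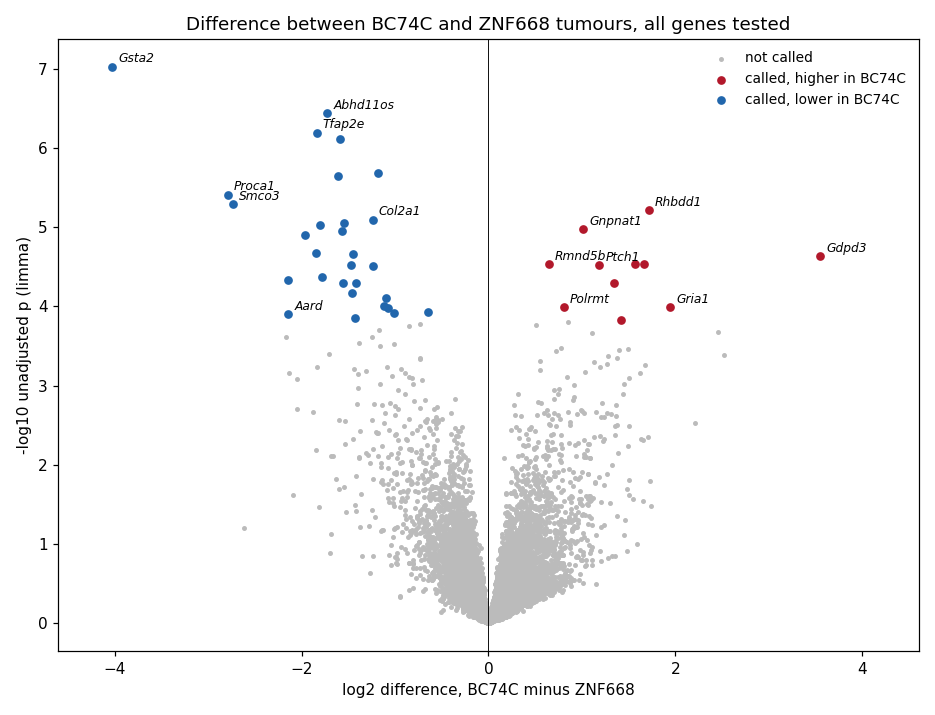
Each point is 1 of the 13218 genes tested, with the log2 difference (BC74C minus ZNF668) on the horizontal axis and -log10 of the unadjusted limma p on the vertical axis. The 11 called genes that were higher in BC74C are red and the 29 that were lower are blue; Gsta2 lies farthest left at -4.03 and Gdpd3 farthest right at 3.55.

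Enzymes that detoxify with glutathione gave the largest log2 difference of the comparison. Gsta2, an alpha-class glutathione S-transferase, ranged from 3.41 to 4.49 (median 3.64) in the BC74C tumours and from 4.79 to 9.70 (median 8.12) in the ZNF668 tumours. The groups did not overlap, and the BC74C values lay near 3.76, the level under which genes were left out as too dim. The difference was -4.03 (SE 0.53, limma adjusted p = 0.00123) and the other probe set of the gene gave -3.19; no fold is given, because the dim BC74C signal limits its size. The probe set used is of the kind that can match several transcripts (s_at), so signal from close paralogues of the alpha class cannot be told apart from that of Gsta2. The lowest ZNF668 tumour was replicate 9 at 4.79, and the next was at 7.34. Gpx3, a secreted glutathione peroxidase, ranged from 5.02 to 8.17 (median 7.03) in BC74C and from 7.79 to 9.05 (median 8.69) in ZNF668 tumours. It fell by 1.84 (SE 0.35, limma adjusted p = 0.0171), and its BC74C values were spread more widely than its ZNF668 values.

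Of the 32 glutathione and antioxidant genes tested, these 2 passed, both lower, against 0.303% of all genes. The list was chosen with earlier results known, so that share is no test of it. The differences of the list were otherwise evenly split, with 17 positive and a median of 0.03, next to 0.0047 over all genes. Gpx7, a glutathione peroxidase of the endoplasmic reticulum, averaged 6.56 ± 1.15 (SD, n = 9) in the BC74C group against 8.73 ± 1.10 (SD, n = 9) in the ZNF668 group. Its difference of -2.17 missed the threshold (limma adjusted p = 0.0655). The theta-class transferases Gstt3 and Gstt1 had the other sign, at 1.40 (limma adjusted p = 0.0857) and 1.24 (limma adjusted p = 0.296), and so had the cytosolic peroxidase Gpx1 at 0.35.

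The promoter of Gsta2 is shown because this gene carries the largest difference, and that of Gdpd3 because it carries the largest in the other direction. Those of N4bp3 and Rmnd5b are shown because these neighbours on chromosome 11 were both called higher. The sequences come from RefSeq (GRCm38.p6) and run 5′ to 3′ on the gene's strand, from 250 bases before to 50 bases after the start. They lie at chr9:78347096-78347395 (minus strand), chr7:126766164-126766463 (plus), chr11:51651024-51651323 (minus) and chr11:51635847-51636146 (minus). Capitals mark matches to the AP-2 motif GCCNNNGGC, searched on both strands because Tfap2e and Tfap2a were called.
Gsta2: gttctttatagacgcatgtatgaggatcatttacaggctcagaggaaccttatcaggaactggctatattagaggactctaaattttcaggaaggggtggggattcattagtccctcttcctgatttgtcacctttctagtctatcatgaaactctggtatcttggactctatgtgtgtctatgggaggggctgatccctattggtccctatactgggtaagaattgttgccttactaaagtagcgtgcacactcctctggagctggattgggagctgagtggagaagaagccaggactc
Gdpd3: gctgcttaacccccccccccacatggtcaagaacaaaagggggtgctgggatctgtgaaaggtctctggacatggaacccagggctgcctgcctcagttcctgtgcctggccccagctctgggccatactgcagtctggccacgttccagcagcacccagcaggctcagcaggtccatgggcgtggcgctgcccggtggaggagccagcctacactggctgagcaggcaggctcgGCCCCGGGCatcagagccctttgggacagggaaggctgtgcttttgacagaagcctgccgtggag
N4bp3: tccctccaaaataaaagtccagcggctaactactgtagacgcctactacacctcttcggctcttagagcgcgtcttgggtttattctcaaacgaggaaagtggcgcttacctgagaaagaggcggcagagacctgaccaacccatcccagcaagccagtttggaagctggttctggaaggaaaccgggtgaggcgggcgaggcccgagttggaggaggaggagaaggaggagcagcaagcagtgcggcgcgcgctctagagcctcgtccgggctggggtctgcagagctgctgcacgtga
Rmnd5b: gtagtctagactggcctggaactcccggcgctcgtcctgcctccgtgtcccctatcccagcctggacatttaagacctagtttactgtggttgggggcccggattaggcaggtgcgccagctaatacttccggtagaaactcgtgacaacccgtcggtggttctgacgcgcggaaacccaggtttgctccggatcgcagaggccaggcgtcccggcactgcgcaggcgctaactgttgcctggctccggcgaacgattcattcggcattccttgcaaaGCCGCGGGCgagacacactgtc
Gdpd3 and Rmnd5b hold 1 match each, and the windows of Gsta2 and N4bp3 hold none. The motif is in 16.6% of the 32851 RefSeq promoter windows of this length. It is in those of 11 of the 30 called genes that have an entry, 4 of 9 higher and 7 of 21 lower. The GLI motif GACCACCCA is in 0.253% of all windows and in 0 of these 30, and the antioxidant response motif TGACNNNGC is in 12.4% and in 6 of the 30 (3 of 9 and 3 of 21), again on both strands. Such matches describe the letters only.

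Gdpd3 encodes a lysophospholipase D that cleaves glycerophospholipids. Its level ranged from 7.44 to 11.27 (median 9.95) in BC74C and from 4.43 to 9.30 (median 5.10) in ZNF668 tumours. Most ZNF668 tumours sat near 5, but replicates 1, 3 and 5 reached 8.13, 7.16 and 9.30 and the groups overlapped. Gdpd3 rose by 3.55 (SE 0.68, limma adjusted p = 0.0171), 11.7 times. Among elw-titled tumours alone the difference was 3.09 and did not pass (limma adjusted p = 0.119). The other 7 glycerophosphodiester and N-acylethanolamine enzymes tested were not called, beside 0.303% of all genes called. The list's median was 0.04, and its lowest member Gdpd1 differed by -0.13. The genes that flank Gdpd3 on chromosome 7 did not pass either: Coro1a, of the leukocyte actin cortex, differed by 0.27 and Ypel3 by 0.18. Bcl7c and Zfp668 lie on the same chromosome, with 65 and 76 annotated genes between them and Gdpd3.

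Lipid handling gave 2 further called genes. Slc27a3, a fatty acid transport protein that also activates fatty acids, ranged from 4.07 to 5.92 (median 5.09) in BC74C and from 5.58 to 7.39 (median 6.99) in ZNF668 tumours. Only ZNF668 replicate 9 fell inside the BC74C range, and the difference was -1.80 (SE 0.32, limma adjusted p = 0.0103). It was 1 of 13 tested genes of fatty acid uptake and activation that passed, against 0.303% of all genes. That share is no test, because the list was chosen with earlier results known. The list's median was -0.09, and Acsl5, an acyl-CoA synthetase, differed by 0.40. Abcg5, which pairs with Abcg8 to export sterols, ranged from 3.09 to 3.52 (median 3.37) in BC74C and from 3.53 to 5.94 (median 4.73) in ZNF668 tumours. It fell by 1.45 (SE 0.28, limma adjusted p = 0.0171), and here too the BC74C tumours were all dim. Genes of cholesterol synthesis and uptake were not called (0 of 15, 11 positive, median 0.15), with Srebf2, their transcriptional regulator, at 0.57 and Sqle, a synthesis enzyme, at -0.21.

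Secreted and matrix proteins changed in both directions. Col2a1, the fibrillar collagen of cartilage, ranged from 3.28 to 3.81 (median 3.50) in BC74C and from 3.90 to 6.12 (median 4.54) in ZNF668 tumours, and Col9a2, a chain of the collagen that coats those fibrils, from 3.86 to 4.98 (median 4.41) and from 5.13 to 7.28 (median 5.61). Neither overlapped between the groups, though Col2a1 was dim in every BC74C tumour. The differences were -1.24 (SE 0.22, limma adjusted p = 0.0103) and -1.46 (SE 0.30, limma adjusted p = 0.0296), and the Col9a2 call was lost in 9 of the 24 fits without 1 tumour. Of the 22 collagen genes listed and tested, which do not include Col9a2, Col2a1 alone passed, against 0.303% of all genes. Among the 22, 17 were negative and the median was -0.33. Col6a3, a chain of the microfibrillar collagen of connective tissue, differed by -1.83 (limma adjusted p = 0.112) and Col9a1 by -1.42, whereas Col6a1 differed by 1.06 (limma adjusted p = 0.75).

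Angptl6, a secreted angiopoietin-like protein, ranged from 5.81 to 7.62 (median 7.45) in BC74C and from 7.55 to 10.33 (median 9.53) in ZNF668 tumours. It fell by 1.97 (SE 0.36, limma adjusted p = 0.0111), with ZNF668 replicate 9 alone inside the BC74C range. The other 8 angiopoietin and vessel growth factor genes tested were not called, beside 0.303% of all genes called. Their list had 7 of 9 negative and a median of -0.43, including Vegfc, a lymphatic growth factor, at -1.24 (limma adjusted p = 0.334). Fndc1, which carries fibronectin type III domains, ranged from 6.12 to 8.85 (median 7.21) and from 7.88 to 9.97 (median 9.22) and differed by -1.78 (SE 0.36, limma adjusted p = 0.0223). Frem1, a basement membrane protein of the Fraser complex, went the other way, from 4.47 to 7.28 (median 6.001) in BC74C and from 3.46 to 5.11 (median 4.43) in ZNF668 tumours. It rose by 1.57 (SE 0.30, limma adjusted p = 0.0171), and 4 ZNF668 tumours lay inside the BC74C range. It was the only call among 13 genes of the Fraser complex and basement membrane (median -0.16), against 0.303% of all genes. In that list the basement membrane collagens Col4a2 and Col4a1 differed by -0.93 and -0.78.

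Several proteins of the actin cytoskeleton and of contraction were lower in BC74C tumours. These genes were grouped by function after they were called, so the grouping is a description. Cfl2, the muscle cofilin that severs actin filaments, ranged from 5.21 to 6.23 (median 5.74) in BC74C and from 6.16 to 8.01 (median 7.42) in ZNF668 tumours, a difference of -1.57 (SE 0.28, limma adjusted p = 0.0106). Sorbs3, the focal adhesion adaptor vinexin, ranged from 5.04 to 6.59 (median 6.18) and from 6.70 to 8.01 (median 7.25) without overlap and differed by -1.23 (limma adjusted p = 0.0171). Tpm2, a tropomyosin that wraps the actin filament, fell by 1.42 (limma adjusted p = 0.0231); BC74C replicates 3 and 7, at 7.02 and 5.85, lay inside the ZNF668 range of 5.76 to 7.86, and the call was lost in 7 of 24 fits without 1 tumour and blocked on title prefix (limma adjusted p = 0.0518). Mylk, the kinase of myosin light chains, fell by 1.07 (limma adjusted p = 0.039), and its 2 other probe sets gave -1.17 and, on a dim signal, -0.11. The Mylk call was lost in 11 of 24 such fits, and also with the probe set of highest variance (limma adjusted p = 0.0616). Acta2, the smooth muscle actin of mural cells, was not called and had the opposite sign, at 1.65 (limma adjusted p = 0.608), and the 9 pericyte and fibroblast markers had a median of -0.23.

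**Figure D2:**
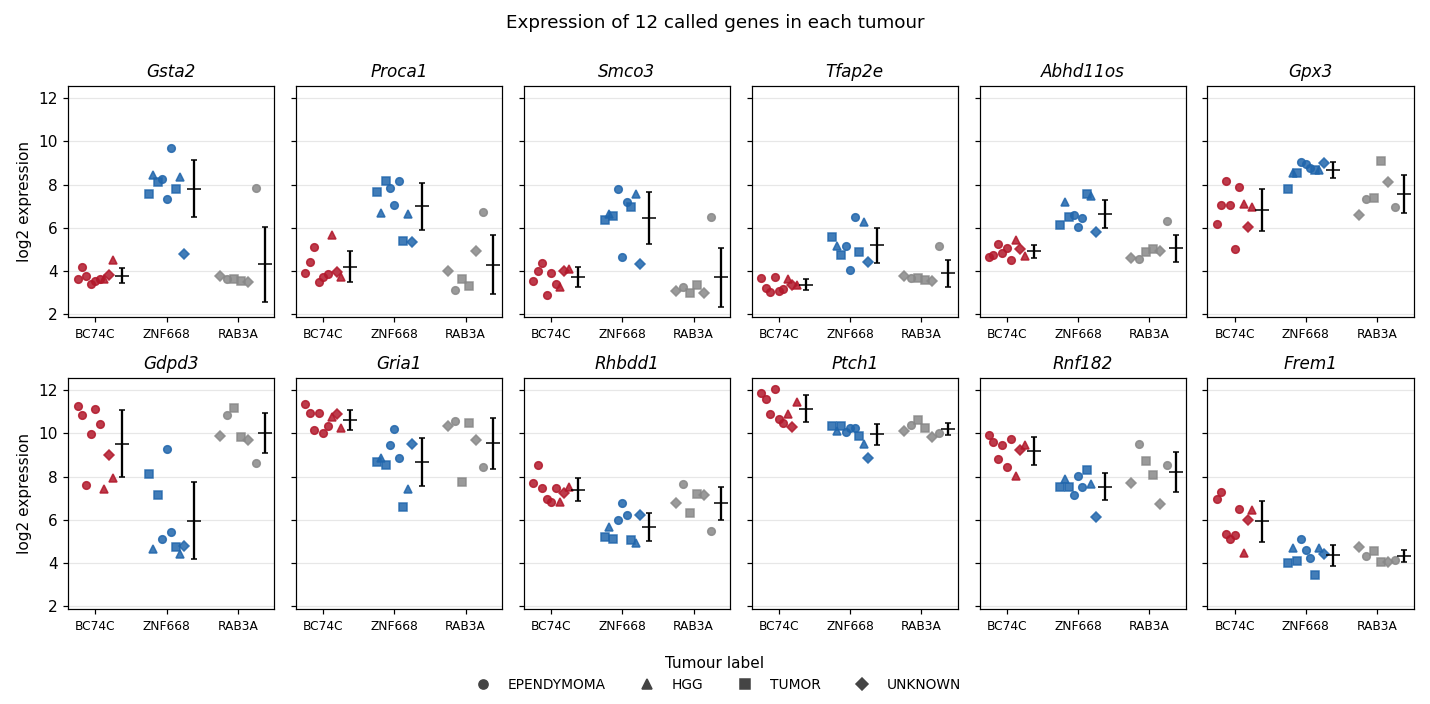
The log2 expression (vertical axis) of 12 called genes is plotted for each tumour, by class gene, with the marker showing the tumour label and the bar the mean ± SD of the group. For Gsta2, Tfap2e, Abhd11os and Rhbdd1 the BC74C and ZNF668 points do not overlap, and 1 RAB3A tumour lies among the ZNF668 values of Gsta2, at 7.85.

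Both tested members of the AP-2 transcription factor family, which act in neural crest, skin and other developing tissues, were lower. Tfap2e ranged from 3.04 to 3.73 (median 3.34) in BC74C and from 4.06 to 6.52 (median 5.14) in ZNF668 tumours and fell by 1.84 (SE 0.27, limma adjusted p = 0.00256). Tfap2a ranged from 3.92 to 5.10 (median 4.23) and from 4.09 to 6.97 (median 5.66) and fell by 1.43 (SE 0.32, limma adjusted p = 0.0476). Tfap2e kept the groups apart; for Tfap2a the ranges overlapped, and its call was lost in 20 of 24 fits without 1 tumour. The other 3 members of the family lay under the filter on dim genes, so 2 of 2 called is no count for the family, beside 0.303% of all genes. Tfap2e lay under 3.76 in every BC74C tumour and passed the filter through its brighter tumours, mainly ZNF668. The list's median of -1.63 turned to 0.15 in 1 of 36 settings. Igf2bp3, an RNA-binding protein of fetal tissues and cancers, ranged from 3.70 to 4.64 (median 4.01) in BC74C and from 4.29 to 7.79 (median 5.34) in ZNF668 tumours and differed by -1.55 (SE 0.32, limma adjusted p = 0.0231). Its ZNF668 values were widely spread, with replicate 7 highest. Taf9b, a relative of a TFIID subunit, fell by 1.01 (limma adjusted p = 0.0434) from a high level, 7.97 ± 0.63 (SD, n = 9) in the BC74C group against 8.98 ± 0.27 (SD, n = 9) in the ZNF668 group. Its call was lost in 14 of 24 fits without 1 tumour and blocked on title prefix (limma adjusted p = 0.0707).

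Among the genes of signalling and survival, Edaradd, the adaptor of the ectodysplasin receptor, ranged from 3.21 to 4.56 (median 3.52) in BC74C and from 3.52 to 7.42 (median 5.75) in ZNF668 tumours. It fell by 2.15 (SE 0.43, limma adjusted p = 0.0231). The other 15 ectodysplasin and NF-kappaB genes tested were not called, beside 0.303% of all genes called. The median of the list was 0.14, with the ligand Eda at 0.37. Other probe sets of Edaradd gave much smaller differences, -0.70 and -0.58, on a dim signal. The probe set used (x_at) is of a kind that can match other transcripts, whose signal cannot be told apart from that of Edaradd. Its BC74C mean, 3.70, lay under the filter level of 3.76. Nol3, a repressor of apoptosis, ranged from 6.29 to 8.19 (median 6.98) and from 8.08 to 9.03 (median 8.57) and fell by 1.54 (SE 0.27, limma adjusted p = 0.0103). In both genes at least 1 ZNF668 tumour reached into the BC74C range. Galr2, a receptor of the neuropeptide galanin, fell by 1.12 (limma adjusted p = 0.039). Without 1 tumour, 13 of 24 fits did not call Galr2, nor did the fit blocked on title prefix (limma adjusted p = 0.0704). Btn1a1, a butyrophilin of the milk fat membrane, fell by 1.59 (limma adjusted p = 0.00256). Both genes were dim in BC74C tumours, at 3.61 ± 0.38 (SD, n = 9) and 3.26 ± 0.16 (SD, n = 9).

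The rest of the named genes that were lower have less settled roles. Proca1 ranged from 3.47 to 5.66 (median 3.93) in BC74C and from 5.34 to 8.17 (median 7.05) in ZNF668 tumours, a difference of -2.79 (SE 0.47, limma adjusted p = 0.00736). Smco3, a small membrane protein, ranged from 2.91 to 4.36 (median 3.91) and from 4.31 to 7.79 (median 6.66), a difference of -2.73 (SE 0.47, limma adjusted p = 0.00846). In both genes the ZNF668 tumours near the BC74C values included replicate 9. Abhd11os, a non-coding transcript from the strand opposite Abhd11, fell by 1.72 (SE 0.25, limma adjusted p = 0.00239) and kept the groups apart, at 4.51 to 5.42 (median 4.84) against 5.82 to 7.56 (median 6.49). Aard fell by 2.14 (limma adjusted p = 0.0434) and Tmem132e, a transmembrane protein, by 1.47 (limma adjusted p = 0.0171). The Aard call was lost in 13 of 24 fits without 1 tumour, and BC74C replicate 9 was its lowest at 3.72.

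In the Hedgehog pathway, Ptch1 is both the receptor and a target gene. It was among the brightest of the called genes and ranged from 10.30 to 12.08 (median 10.90) in BC74C and from 8.87 to 10.36 (median 10.11) in ZNF668 tumours. BC74C replicate 8, at 10.30, and ZNF668 replicates 1 and 3 made the ranges overlap. The rise was 1.18 (SE 0.23, limma adjusted p = 0.0171). Ptch1 was not called in the 18 BC74C and ZNF668 tumours alone (limma adjusted p = 0.0551). Nor was it called among elw-titled tumours, at 0.87 (limma adjusted p = 0.2). The remaining 13 pathway genes tested were not called, beside 0.303% of all genes called. Of the 14, 9 were positive and the median was 0.16. Gli1, a transcription factor and target of the pathway, ranged from 3.48 to 7.12 in BC74C and from 3.12 to 3.68 in ZNF668 tumours, a difference of 1.45 (limma adjusted p = 0.145). Gas1, a co-receptor, differed by -0.26.

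Gria1, an AMPA receptor subunit, ranged from 10.01 to 11.38 (median 10.75) in BC74C and from 6.59 to 10.20 (median 8.85) in ZNF668 tumours. The ZNF668 tumours were the more variable, with replicates 7 and 8 lowest at 6.59 and 7.45. Gria1 rose by 1.95 (SE 0.42, limma adjusted p = 0.039), its other probe set gave 2.20, and 12 of 24 fits without 1 tumour lost the call, as did the fit blocked on title prefix, at 1.74 (limma adjusted p = 0.067). Of the 20 ionotropic glutamate receptor genes tested no other passed, beside 0.303% of all genes called. Among the 20, 10 were positive and the median was 0.01. Cnih2, an auxiliary subunit of AMPA receptors, differed by 0.87 (limma adjusted p = 0.25), and Grin3a, an NMDA receptor subunit, by -1.19 (limma adjusted p = 0.277). General neuron markers were higher on average in the same tumours: 12 of 12 differences were positive with a median of 0.53 (-0.51 among ependymoma-labelled tumours alone), and the mean level of the list ran from 7.59 to 10.79 in BC74C and from 5.20 to 10.74 in ZNF668 tumours. With that level as a covariate the Gria1 difference was 1.70 (limma adjusted p = 0.0157), and all 40 genes stayed called.

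Of the genes of protein turnover and modification, Rhbdd1, a rhomboid protease of the endoplasmic reticulum membrane, ranged from 6.83 to 8.56 (median 7.46) in BC74C and from 4.91 to 6.76 (median 5.69) in ZNF668 tumours. No values overlapped, and the rise was 1.71 (SE 0.30, limma adjusted p = 0.00894). Rnf182, a RING ubiquitin ligase of brain, ranged from 8.03 to 9.94 (median 9.46) and from 6.14 to 8.33 (median 7.53) and rose by 1.67 (SE 0.32, limma adjusted p = 0.0171). Its other probe set gave 1.76. Gnpnat1, an acetyltransferase on the way to UDP-GlcNAc, ranged from 6.79 to 7.65 (median 7.52) and from 5.96 to 7.13 (median 6.18) and rose by 1.01 (SE 0.18, limma adjusted p = 0.0106). It was 1 of 8 hexosamine pathway genes tested to pass (median 0.06), against 0.303% of all genes. As this list too was chosen with earlier results known, that share is no test. Gfpt2, a form of the first enzyme of the pathway, differed by -0.85 (limma adjusted p = 0.479).

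The neighbours N4bp3, a protein that binds NEDD4 ubiquitin ligases, and Rmnd5b, a RING subunit of the CTLH ubiquitin ligase complex, were both higher. N4bp3 ranged from 5.996 to 8.17 (median 7.13) in BC74C and from 4.67 to 6.57 (median 5.62) in ZNF668 tumours and rose by 1.35 (SE 0.27, limma adjusted p = 0.0231). Rmnd5b ranged from 8.04 to 8.90 (median 8.65) and from 7.71 to 8.11 (median 7.93) and rose by 0.64 (SE 0.13, limma adjusted p = 0.0171), the smallest difference among the called genes. In the 18 BC74C and ZNF668 tumours alone N4bp3 was not called (limma adjusted p = 0.0551). Neither N4bp3 nor Rmnd5b was called among elw-titled tumours (limma adjusted p = 0.0758 and 0.161). Neither was called with the tumour label as a covariate (limma adjusted p = 0.0863 and 0.0686). They lie side by side on chromosome 11 with 0 annotated genes between them, while the tested genes on their outer sides, Nhp2 and D930048N14Rik, differed by 0.19 and 0.11 and were not called. No other called gene had a called tested neighbour. Of 80 flanking genes 2 were called (N4bp3 and Rmnd5b themselves) and 8 had an unadjusted limma p under 0.05. Over all 13218 genes tested, 40 were called and 909 had an unadjusted limma p under 0.05. The called genes lay on 17 chromosomes, with 8 of the 40 on chromosome 11. The share of all tested genes on that chromosome was not counted.

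Polrmt, the RNA polymerase of mitochondria, ranged from 8.21 to 9.003 (median 8.54) in BC74C and from 7.19 to 8.79 (median 7.61) in ZNF668 tumours. It rose by 0.81 (SE 0.17, limma adjusted p = 0.039), though ZNF668 replicates 5 and 9 lay among the BC74C values, and 14 of 24 fits without 1 tumour lost the call. The other 11 genes of mitochondrial transcription and replication were not called, beside 0.303% of all genes called. The median of the list was 0.03, with the polymerase subunit Polg at -0.65. Serinc2, a serine incorporator, ranged from 4.35 to 7.08 (median 5.94) and from 3.94 to 4.78 (median 4.43). Its rise of 1.42 (limma adjusted p = 0.0497) was lost in 20 of 24 such fits, as that of Tfap2a was, with 6 ZNF668 tumours inside the BC74C range.

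**Figure D3:**
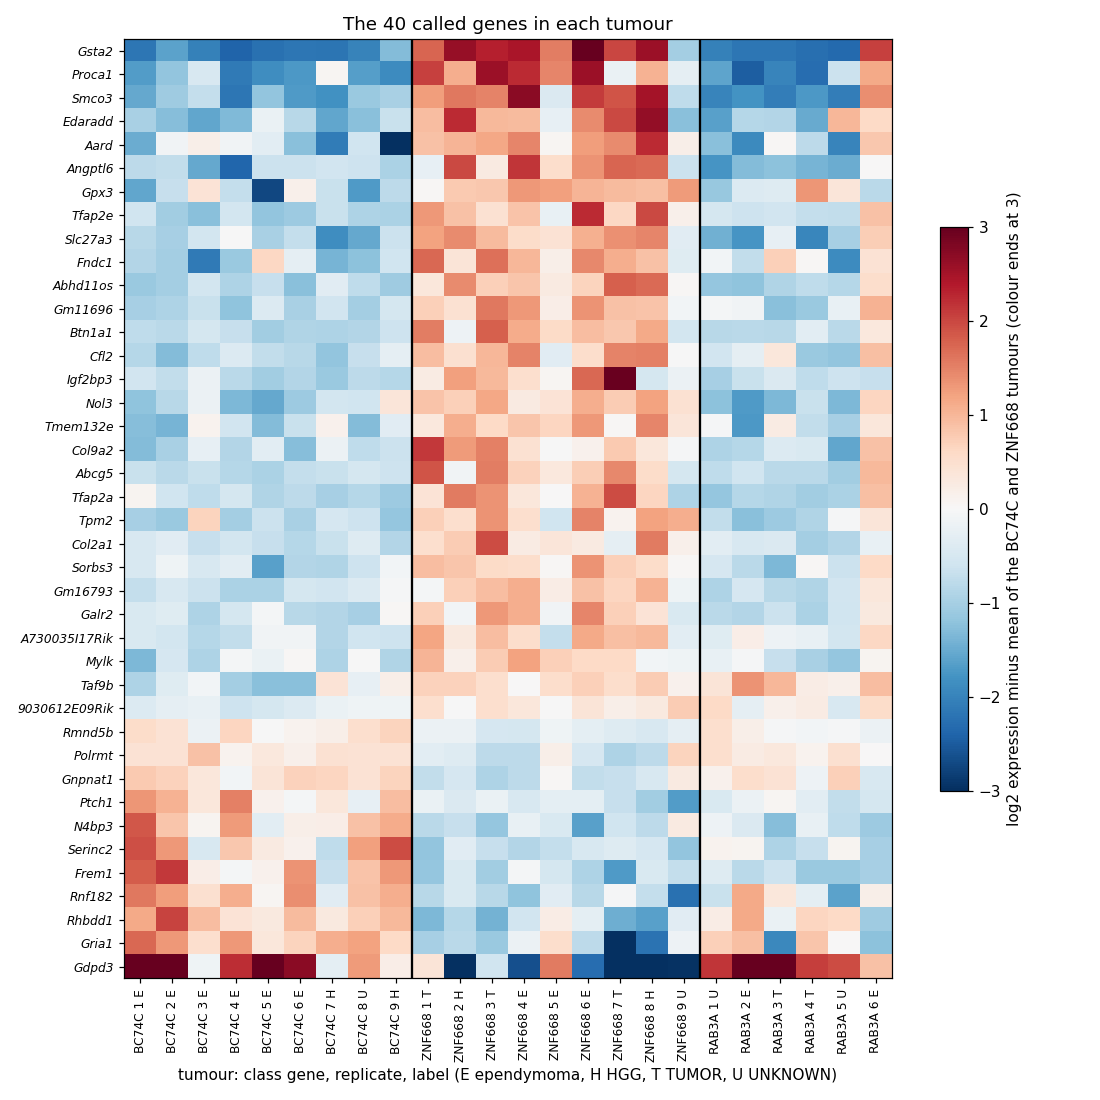
Each row is 1 of the 40 called genes and each column 1 of the 24 tumours; colour gives the log2 expression minus the mean of the 18 BC74C and ZNF668 tumours, and ends at 3. Among the 29 genes lower in BC74C, at the top, ZNF668 replicate 9 has the lowest value of its group in 16. RAB3A replicate 6 is redder there than the other RAB3A tumours.

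Since the genes were chosen on this contrast, their pattern over single tumours is a description. ZNF668 replicate 9 was the lowest of its group in 16 of the 29 called genes that were lower in BC74C, and it lay under the highest BC74C tumour in 14 of them. ZNF668 replicate 5 lay there in 8, and the other 7 tumours in 0 to 3. ZNF668 replicates 9 and 5 also had the 2 highest neuron marker levels of their group, at 10.74 and 10.33. The number of called genes was 63 without replicate 9 and 50 without replicate 5, with 38 and 37 of the 40 among them. Among the elw-titled tumours, 8 BC74C against 6 ZNF668, 27 of the 40 genes stayed called. Those lost include Ptch1 at 0.87 (limma adjusted p = 0.2), Gria1 at 1.57 (limma adjusted p = 0.12), Frem1 at 1.41 (limma adjusted p = 0.163) and Gpx3 at -1.80 (limma adjusted p = 0.12). Blocked on title prefix, 30 stayed called; those lost were Gria1, Polrmt, Serinc2, Aard, Tfap2a, Tpm2, Galr2, Taf9b, A730035I17Rik and 9030612E09Rik. The mmr titles hold only 1 BC74C tumour and gave no value of their own. The RAB3A tumours, which share the ZNF668 tumours as the other side of their own comparison, are given side by side. RAB3A tumours lay -3.50 from ZNF668 for Gsta2, -2.69 for Proca1, -2.74 for Smco3 and 4.05 for Gdpd3, where BC74C tumours lay -4.03, -2.79, -2.73 and 3.55. For Ptch1, N4bp3, Frem1 and Taf9b they lay 0.23, 0.01, -0.05 and 0.16 from ZNF668, where BC74C tumours lay 1.18, 1.35, 1.57 and -1.01. RAB3A replicate 6 was the highest of its group in 23 of the 29 lower genes.

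The groups differ in their tumour labels, so the comparison was repeated by label. In the ependymoma-labelled tumours, 6 BC74C against 3 ZNF668, all 40 genes had the same sign as in the tumours with other labels, 3 against 6, and 21 were larger in size there. These genes were chosen on all the tumours, so their shared sign is no test. Gsta2 differed by -4.73 and -3.54, Proca1 by -3.60 and -2.20, Gdpd3 by 3.60 and 2.49, and Gria1 by 1.11 and 2.36. A test of whether the class gene difference itself depends on the label found 0 genes with limma, beside 938 of 13218 whose unadjusted p lay under 0.05. With array weights, which let tumours count unequally, the same test called 1997, beside 4755 at an unadjusted p under 0.05. Of the 40 genes only Aard (-1.44 against -3.33) and Taf9b (-1.24 against -0.43) had an unadjusted interaction p under 0.05, at 0.0376 and 0.0432, and both had a limma adjusted p of 0.695. Restricted to the ependymoma-labelled tumours, the limma count was 0, beside 681 genes whose unadjusted p lay under 0.05. That fit held 6 BC74C and 3 ZNF668 tumours, and 2 RAB3A tumours that served only to estimate the spread. With the tumour label as a covariate it called 20, of which 18 were among the 40; Gsta2 then differed by -4.33 (limma adjusted p = 0.000625) and Gdpd3 by 3.62 (limma adjusted p = 0.0166), while Gria1 at 1.62 (limma adjusted p = 0.205) and Frem1 at 1.38 (limma adjusted p = 0.128) were lost.

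**Figure D4:**
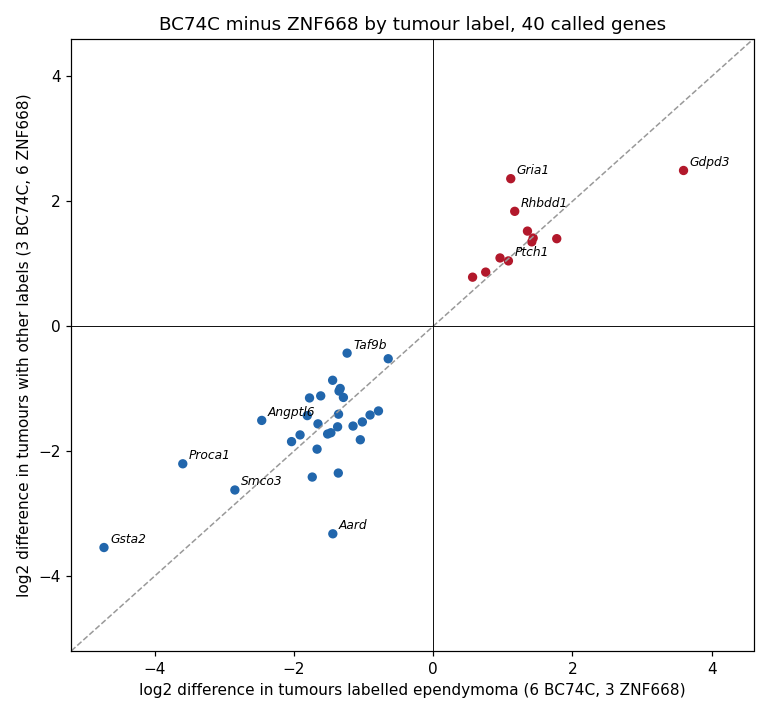
Each point is 1 of the 40 called genes, with the log2 difference (BC74C minus ZNF668) in the ependymoma-labelled tumours on the horizontal axis and in the tumours with other labels on the vertical axis; the dashed line marks equal differences. All points lie in the lower left or upper right, with Gsta2 at -4.73 and -3.54 and Gdpd3 at 3.60 and 2.49.

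Cell type markers gave no called gene: 0 of the tested members of each of 15 marker lists passed, against 0.303% of all genes. Oligodendrocyte progenitor markers were mostly lower in BC74C (13 of 14 negative, median -0.70). Lhfpl3, a tetraspan protein of these cells, averaged 8.66 ± 0.54 (SD, n = 9) in the BC74C group against 10.05 ± 0.54 (SD, n = 9) in the ZNF668 group (limma adjusted p = 0.159), and Megf11 was the exception at 0.24. Markers of mature oligodendrocytes had a median of -0.05 and 4 of 11 positive, with the myelin lipid enzyme Ugt8a at -1.28 and Aspa, an aspartoacylase, at 0.61. Excitatory neuron markers were positive in 11 of 11, with a median of 0.96, or -0.02 among ependymoma-labelled tumours alone; the layer 4 factor Rorb differed by 0.61 and Bcl11b, of deep layers, by 0.43. Interneuron markers had a median of 0.08, with Dlx6 at 0.47 and Dlx2 at -0.35. The 6 neuronal progenitor markers had a median of 0.29, with Eomes, of intermediate progenitors, at 0.34 and Sox4 at -0.25.

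Glial and stem markers were mixed. The 13 astrocyte markers had a median of 0.14. Aldh1l1, a folate enzyme of astrocytes, stood apart from them at 2.45 (9.41 ± 1.36 (SD, n = 9) in the BC74C group against 6.96 ± 0.97 (SD, n = 9) in the ZNF668 group, limma adjusted p = 0.0606), while Aldoc differed by -0.38. The 16 radial glia and neural stem markers had a median of 0.14, with the stem cell receptor Nr2e1 at 0.95 and Prom1 at -0.51. The 16 ependymal and motile cilia markers had 12 positive and a median of 0.27, with Rfx2, a regulator of cilia genes, at 0.62 and Ccdc40 at -0.14. Choroid plexus markers had a median of -0.01, with Otx2 at 0.78 and Clic6 at -0.37, and BC74C replicate 2 had the highest level of that list among these 18 tumours, at 7.34.

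Immune markers were mostly positive and vessel markers mostly negative over all 18 tumours, none of them called. Among the ependymoma-labelled tumours alone the medians had the other sign, at -0.31 for microglia and macrophages, -0.09 for T and NK cells and 0.22 for endothelium. Microglia and macrophage markers had 14 of 16 positive and a median of 0.24, with Adgre1, a macrophage surface receptor, at 0.61 and the integrin Itgam at -0.05. T and NK cell markers had a median of 0.19, with Cd4 at 0.19 and the pore-forming Prf1 at -0.13. Antigen presentation and interferon genes were positive in 18 of 18 with a median of 0.48, from the chemokine Cxcl10 at 0.26 to the class I heavy chain H2-K1 at 0.46 by moderated t. Over 37 settings that median kept its sign but ran from 0.01 to 0.68. Endothelial markers were negative in 14 of 16 with a median of -0.40, with the junction protein Esam at -0.57 and Podxl at 0.02. Red blood cell markers had a median of -0.16, with Hba-a1 at -0.18 and Alas2 at -0.13. Of the transcripts that track sex, Eif2s3y differed by -1.0001 and Xist by 0.45. With the mean of Eif2s3y, Kdm5d and Uty as a covariate 27 of the 40 genes stayed called, Gsta2 at -3.70 and Gdpd3 at 3.85 among them, and Gria1 did not, at 1.75 (limma adjusted p = 0.0768).

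**Figure D5:**
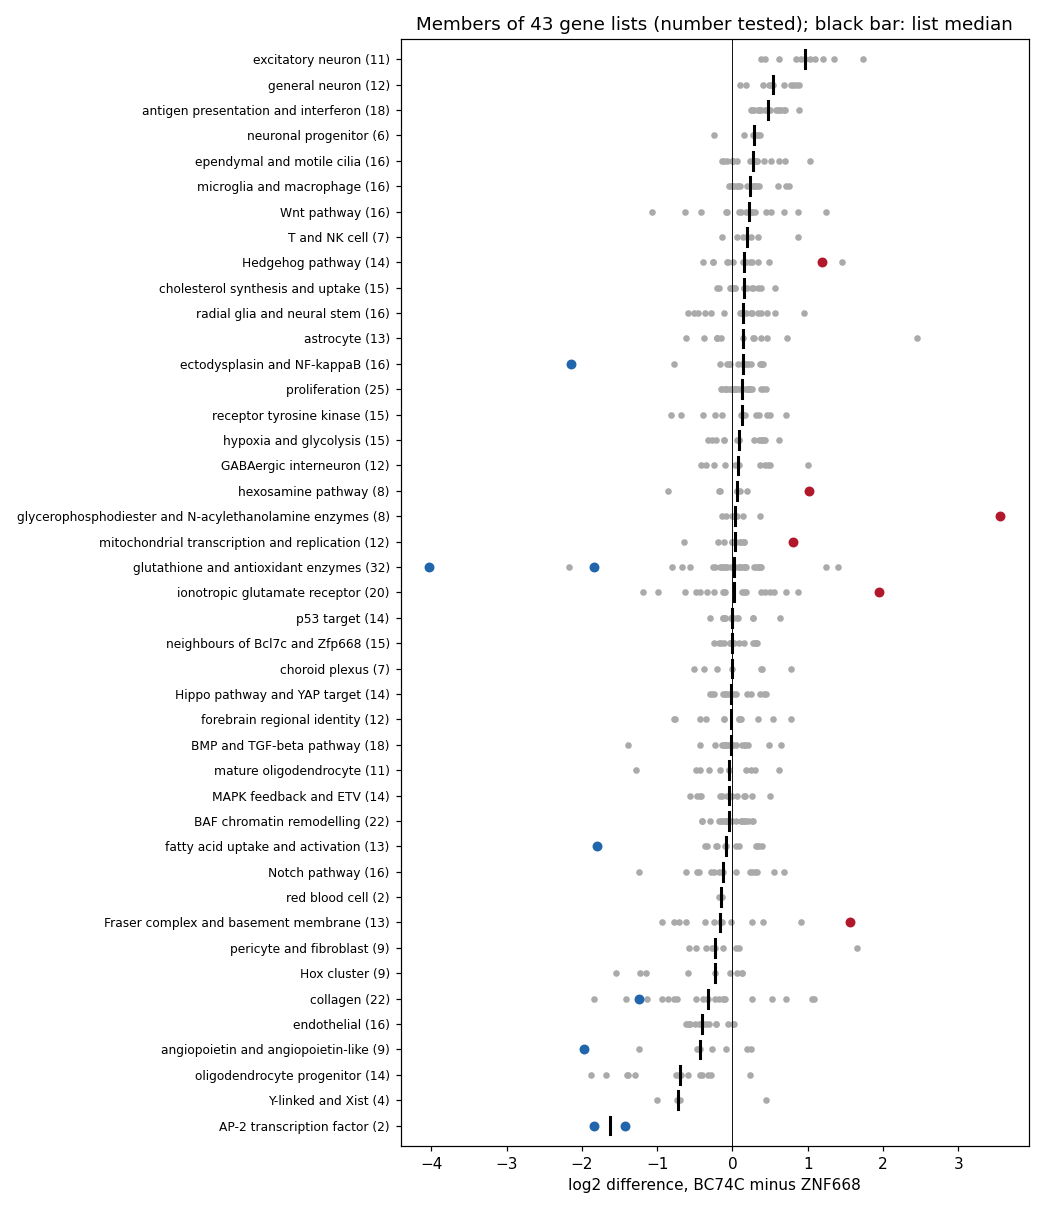
Each row is 1 of 43 gene lists and each point a tested member, placed by its log2 difference (BC74C minus ZNF668); the black bar is the list's median, and called genes are red (higher) or blue (lower). Called members lie far from the bar of their own list, as Gdpd3 at 3.55 does from its list's median of 0.04, except in the AP-2 row, where both tested members were called.

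Signalling and growth lists held no called gene outside those given above. Notch genes had 7 of 16 positive and a median of -0.13, with the ligands Dll3 and Jag1 at -1.24 and 0.69. Wnt genes had 11 of 16 positive and a median of 0.22; the secreted inhibitor Sfrp1 differed by 0.86 (limma adjusted p = 0.314) and Lgr5, a stem cell receptor, by -1.07. BMP and TGF-beta genes had a median of -0.02, with the ligands Bmp4 at -1.38 and Tgfb2 at 0.64. Receptor tyrosine kinases had a median of 0.12, with Kit at -0.82 (limma adjusted p = 0.277) and Met at 0.72. MAPK feedback and ETV genes had a median of -0.05, with Egr1 at 0.50 and Phlda1 at -0.47. Hippo genes had a median of -0.02, with the kinase Lats2 at 0.25 and Nf2 at -0.24.

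The proliferation list was level between the groups in its median (0.13, 18 of 25 positive), with Rrm2, a subunit of ribonucleotide reductase, at 0.44 and the mitotic kinase Plk1 at -0.15. Within the groups it varied far more, from 5.71 to 9.19 in BC74C and from 5.71 to 9.44 in ZNF668 tumours. Hypoxia and glycolysis genes had a median of 0.08, with the glucose transporter Slc2a3 at 0.42 and Car9 at -0.33. The p53 targets had 7 of 14 positive, with Pmaip1, a BH3-only protein, at 0.63 and Mdm2 at -0.10. The BAF complex genes had 9 of 22 positive and a median of -0.05, with Bcl7b at 0.26 and Smarce1 at -0.40. The 15 tested neighbours of Bcl7c and Zfp668 on chromosome 7 had a median of -0.01, with Prss36 at 0.31 and Kat8 at -0.25. Regional identity genes of the forebrain had a median of -0.02, with Otx1 at 0.54 and Gbx2 at -0.76, and of 27 Hox genes 9 were bright enough to test, with Hoxa7 at -1.55 (limma adjusted p = 0.523) and Hoxb3 at 0.12.

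Altogether the lists hold 703 genes, of which 560 were tested and 14 called, in 12 of 43 lists, beside 0.303% of all genes. Several lists were built around genes known to differ here, so this count supports nothing about the lists. Just outside the threshold, 22 genes had an adjusted p between 0.05 and 0.1. They include the short-chain dehydrogenase Sdr42e1 at 0.85 (limma adjusted p = 0.0501), the chemokine receptor Ccr2 at -1.38, the interferon-induced Ifitm2 at 1.49 and the tight junction protein Ocln at -1.01, chosen for mention after their values were seen.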

How the data were processed

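The deposited series table gives, for each of 45141 probe sets and each tumour, 1 expression value on the log2 scale, per the labels of biotin-labelled cRNA from Trizol-extracted total RNA. That the scale is log2 was read from the values (2.40 to 13.85). Partek 6.6 was used by the authors, per the submitters' processing notes; background correction, normalization and summarisation are not given in the sources used here, and a normalization that equalises arrays hides shifts shared by most genes. Without 104 control probe sets, 28898 carried 1 symbol, 551 several and 15588 none in the platform annotation; 28689 matched RefSeq (GRCm38.p6) by Entrez identifier. For each of 17097 genes the brightest of its single-symbol probe sets, by the mean over 24 arrays, was used. Genes under the 30th percentile of probe set means (3.76) were left out, leaving 13218.

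All 24 tumours were fitted with 1 mean per class gene in limma 3.58.1 (R 4.3.3; lmFit, eBayes with an intensity trend), two-sided, Benjamini-Hochberg adjusted, threshold 0.05. The label interaction used 18 tumours. The fits were tested on simulated data. Named are all called genes without clone or prediction names, the members with the highest and lowest moderated t of each of 43 lists, and Bcl7c, Zfp668 and Rab3a; other list members were picked after their values were seen. The tumour groups, lists and tests were chosen with earlier results of these data known. Replicate numbers follow the order of deposit and pair nothing. The number of arrays limits the precision. Rab3a differed by 0.22 between BC74C and ZNF668 tumours. Python 3.11.15 (pandas 2.3.3, matplotlib 3.10.9) made the tables and figures.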

Additional observations from a re-analysis of the deposited data

Results flagged for a closer look

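In 9 of 84 sets (1 gene in 1 group of 9 tumours) a single tumour stood apart from the rest by Dixon's criterion, where chance gives about 1 in 20. Below the other tumours of its group lay Gsta2 in ZNF668 replicate 9 at 4.792 (next 7.342), Gpx3 in ZNF668 replicate 1 at 7.788 (next 8.546) and Gnpnat1 in BC74C replicate 4 at 6.786 (next 7.223). Above the others lay Rhbdd1 in BC74C replicate 2 at 8.562 (next 7.691), Polrmt in BC74C replicate 3 at 9.003 (next 8.58), Tpm2 in BC74C replicate 3 at 7.021 (next 5.848) and Tfap2a in BC74C replicate 1 at 5.096 (next 4.47). The remaining sets are Zfp668, the mouse orthologue of a class gene, in BC74C replicate 4 at 5.762 (next 5.167) and in ZNF668 replicate 6 at 5.551 (next 5.084). The calls of Gsta2, Gpx3, Gnpnat1 and Rhbdd1 were kept in each fit that left out 1 tumour, and those of Polrmt, Tpm2 and Tfap2a were lost in 14, 7 and 20 of 24.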

How the results depend on the processing

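None of the 40 called genes changed sign under any alternative run. Fitted without the RAB3A tumours, 12 of the 40 calls were lost. These were Ptch1, Frem1, N4bp3, Polrmt, Serinc2, Aard, Galr2, Igf2bp3, Mylk, Taf9b, Tfap2a and A730035I17Rik. The count of 40 (11 higher, 29 lower in BC74C) was 30 (6 and 24) in the 18 tumours alone, 23 (9 and 14) with the filter at the 50th percentile, 30 (8 and 22) blocked on title prefix, 46 (6 and 40) within elw titles, 20 (4 and 16) with the tumour label as a covariate, 0 (0 and 0; 681 at an unadjusted p under 0.05 with limma) within ependymoma labels, 130 (47 and 83) with array weights, 57 (23 and 34) adjusted for the neuron level and 36 (16 and 20) adjusted for the Y-linked level. It was 40 to 43 without the low-value filter or the intensity trend, after quantile normalization, or with the probe set of highest variance. Leaving out 1 tumour gave 25 to 63 calls (7 to 19 higher, 18 to 44 lower): 25 without ZNF668 replicate 3, 26 without ZNF668 replicate 1 or 6 or BC74C replicate 8, and 63 without ZNF668 replicate 9. The label interaction, 0 with limma, was 1997 with array weights (4755 at an unadjusted p under 0.05), and 0 to 2 without 1 tumour: 2 without BC74C replicate 2 or ZNF668 replicate 5 and 1 without ZNF668 replicate 4. The cause of these changes was not tested. Many list medians changed sign in at least 1 of 37 settings. Only within ependymoma labels did the general neuron (0.53, range -0.51 to 0.80), excitatory neuron (0.96, -0.02 to 1.29), endothelial (-0.40, -0.47 to 0.22), collagen (-0.33, -0.49 to 0.01) and Fraser and basement membrane (-0.16, -0.31 to 0.30) medians turn, among others. The microglia and macrophage median (0.24, -0.31 to 0.36) turned there and within elw titles. The oligodendrocyte progenitor median, -0.87 to -0.46, kept its sign. Of the called genes 7 that were lower had a BC74C mean under 3.76, where array signal limits the size of a difference. These are Abcg5, Btn1a1, Col2a1, Edaradd, Galr2, Smco3 and Tfap2e. No paired analysis was possible because the replicate numbers follow the order of deposit.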

Other observations

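Some genes near the threshold belong to cell types or functions not described above. Cavin2, a caveolar coat protein, differed by 2.52 between BC74C and ZNF668 tumours (limma adjusted p = 0.0928), and Ndnf, a secreted protein of cortical interneurons, by 1.38 (limma adjusted p = 0.097). Gjc1, a gap junction protein, differed by -1.17 (limma adjusted p = 0.0591) and the mitochondrial phospholipid enzyme Pisd by 0.51 (limma adjusted p = 0.0521). These were picked after their values were seen and none passed. Of 23 further probe sets of 12 called genes, 15 were bright enough to test and all 15 had the sign of the probe set used. Their sizes could differ, as for Edaradd, at -0.70 and -0.58 against -2.15.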
